A study of Mus musculus with 4 samples.

Results

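Sox4, Sox11 and Sox12, the 3 SoxC genes among the 21757 protein-coding genes of the mouse annotation, were examined in 4 lists of H3K27ac peaks from E14.5 fetuses. The peaks taken were all peak intervals within 500 kb of the transcription start site of each gene in the GRCm39 build. They numbered 111 of 40899 intervals in the EGFP+ and 77 of 34360 in the EGFP− cells of the limb, and 89 of 36231 and 81 of 30716 in those of the trunk. The fetuses were made by tetraploid complementation from 1 line of targeted G4 embryonic stem cells. All 4 populations therefore carried the same Col2a1-EGFP allele, in which an EGFP sensor cassette sits upstream of Col2a1, the gene of the collagen of cartilage. Limbs and trunks were dissected and the cells were sorted by EGFP, so that EGFP+ cells were those in which the Col2a1 locus drives the sensor and EGFP− cells were all other cells of the same tissue. Each population gave 1 library, so the values carry no replicate error and no test was made between populations.

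SoxC proteins are transcription factors with an HMG box, a DNA-binding domain that bends the double helix, and with an activation domain at the other end of the protein. Sox4 and Sox11 are known for their roles in progenitor cells of the nervous system, the heart outflow tract and the skeleton, where they act in mesenchyme, perichondrium and joint-forming cells and stabilise beta-catenin, the effector of canonical Wnt signalling. Sox12 is the weakest activator of the group in reporter assays. In cartilage the chondrocytes themselves depend on other members of the family, Sox9 with Sox5 and Sox6. H3K27ac is an acetylation of histone H3 found at active promoters and enhancers.

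The peak caller gives each summit a fold and a −log10 p against a local background of the same library. From this pair the reads stacked at a summit, each extended to 200 bp, and the reads of the local background were recovered. The median summit held 26 to 29 reads over the 4 lists, and the library-wide background was 1.49 to 1.83 reads. An equal number of reads had been sampled from each library by the authors, yet the library-wide background differed. Summit reads are compared below without scaling to this background, and the counting intervals do not cover its differences. Of 14 chondrocyte markers, 14 carried an interval in their own promoter in both EGFP+ lists, 5 in each EGFP− list and 4 in all 4 lists. Of 8 markers of perichondrium and mesenchyme, 4 carried one in limb EGFP+ cells and 6 in each of the other lists. The defining markers of skin epithelium and of blood carried none in any list. Of 6 skeletal muscle markers, 1, Myog, carried one, in limb EGFP+ cells alone. Of 4 endothelial markers, 1, Tek, carried one in both EGFP− lists. Of 5 markers of neurons and glia, Sox10 carried one in limb EGFP+ cells alone and Tubb3 in trunk EGFP− cells alone. Limb and trunk libraries carry different lane labels, so lane and tissue cannot be told apart. The labels also give more than 1 read length and 2 sonicators without saying which library had which, and their part in the widths and reads was not tested. Where a population shows fewer reads at a gene, fewer marked cells and less acetylation per cell cannot be told apart.

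Sox4 (ENSMUSG00000076431.5) lies on the minus strand at chr13:29132902-29137696, Sox11 (ENSMUSG00000063632.7) on the minus strand at chr12:27384263-27392573, and Sox12 (ENSMUSG00000051817.10) on the minus strand at chr2:152235531-152239983. Each has 1 exon and 1 annotated start site. The surroundings of the genes differ. No other protein-coding start site lies within 500 kb of Sox4 or of Sox11. By the starts of gene records, the nearest genes are Prl5a1 at 811 kb and Cmpk2 at 873 kb. By the same records the window of Sox12 holds the starts of 32 other protein-coding genes, the nearest being Nrsn2 at 6.84 kb. The median gene has 15. Start sites of single transcripts, which serve for the count by the nearest start site, can lie nearer. Promoters of lncRNAs were not counted. The SoxC start site was the nearest protein-coding one for 82 of the 96 distal intervals at Sox4 and 51 of 51 at Sox11, against 11 of 96 at Sox12. These counts largely follow from the spacing of the genes and do not show which gene an interval acts on. The outermost interval inside the windows lay 472 kb from the start site of Sox4, 442 kb from that of Sox11 and 487 kb from that of Sox12, with 9, 12 and 10 reads, and the first ones outside lay at 535, 532 and 503 kb, with 26, 23 and 15 reads.

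The summit and the 100 bases on each side of it are printed for the strongest promoter interval, the strongest EGFP+-only and EGFP−-only distal region and the strongest distal region of all 4 lists, as far as the stretch lies outside annotated UTRs. They are given 5′ to 3′ on the plus strand of GRCm39. An EGFP+-only region holds a distal interval that no EGFP− interval of the same tissue overlaps by 1 bp or more, and an EGFP−-only region the reverse. Capitals mark matches, on either strand, to the 6 letters TAAACA of a FOX motif or to ACAAAG of a SOX and TCF/LEF motif. The 2 other motifs searched, AACAAT for SOX and TGANTCA for AP-1, have no match in these 6 stretches. The first 3 stretches stand for the patterns found at Sox4, namely shared by all lists, EGFP+-only and EGFP−-only.
Sox4, all 4 lists, chr13:29142771-29142971, in an exon of the lncRNA A330102I10Rik: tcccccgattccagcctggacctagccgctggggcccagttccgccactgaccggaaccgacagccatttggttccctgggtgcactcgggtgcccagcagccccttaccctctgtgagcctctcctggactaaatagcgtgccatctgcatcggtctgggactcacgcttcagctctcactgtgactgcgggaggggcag
Sox4, EGFP+-only, chr13:29600779-29600979, in an intron of Cdkal1: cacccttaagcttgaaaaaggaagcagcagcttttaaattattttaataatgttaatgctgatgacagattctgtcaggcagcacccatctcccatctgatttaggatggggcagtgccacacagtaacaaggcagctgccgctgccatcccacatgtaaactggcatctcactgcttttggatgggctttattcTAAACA
Sox4, EGFP−-only, chr13:28902208-28902408, in an intron of the lncRNA 2610307P16Rik: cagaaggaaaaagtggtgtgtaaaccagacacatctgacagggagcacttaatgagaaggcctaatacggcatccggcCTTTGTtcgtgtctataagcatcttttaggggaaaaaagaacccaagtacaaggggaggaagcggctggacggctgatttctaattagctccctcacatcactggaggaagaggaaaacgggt
Sox11, promoter, chr12:27393477-27393677, in an exon of the lncRNA Gm56537: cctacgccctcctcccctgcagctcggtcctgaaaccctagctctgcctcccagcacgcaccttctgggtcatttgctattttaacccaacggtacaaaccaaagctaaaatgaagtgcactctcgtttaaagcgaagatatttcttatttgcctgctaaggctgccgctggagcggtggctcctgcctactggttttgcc
Sox11, EGFP+-only, chr12:27186357-27186557, in an exon of the lncRNA Silc1: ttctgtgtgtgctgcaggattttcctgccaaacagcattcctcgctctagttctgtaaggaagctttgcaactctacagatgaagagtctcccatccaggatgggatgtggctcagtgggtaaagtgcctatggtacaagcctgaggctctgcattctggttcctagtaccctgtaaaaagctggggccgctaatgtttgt
Sox12, promoter, chr2:152240402-152240602, in an intron of the lncRNA Gm75429: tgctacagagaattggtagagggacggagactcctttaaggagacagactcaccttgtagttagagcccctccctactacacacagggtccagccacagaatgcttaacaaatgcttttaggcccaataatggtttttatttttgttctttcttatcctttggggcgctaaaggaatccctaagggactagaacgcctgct

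All 3 SoxC promoters were marked in all 4 populations. The promoter window, which begins 2 kb before the start site and ends 500 bp past it, was overlapped by an interval of every list at Sox4, at Sox11 and at Sox12. Over all 21757 protein-coding genes, the EGFP+ and EGFP− lists marked the own promoter of 54.0% and 51.2% in the limb and of 52.2% and 52.2% in the trunk, and 47.1% of the genes were marked in all 4 lists. Presence in every list was thus the state of many genes. The promoter windows of Sox11 and Sox12 were rich in CpG, with an observed over expected ratio of 0.828 and 0.831 against a median of 0.362 over all genes. The ratio at Sox4 was 0.550.

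At Sox4, 1 promoter interval was called in each list, with its summit inside the 5′ UTR. The summits lay 338, 329, 206 and 305 bp downstream of the start site in limb EGFP+, limb EGFP−, trunk EGFP+ and trunk EGFP− cells. In the limb they held 73 reads (95% counting interval 57.2 to 91.8) in EGFP+ and 60 (45.8 to 77.2) in EGFP− cells. The trunk counts were 53 (39.7 to 69.3) for EGFP+ and 63 (48.4 to 80.6) for EGFP− cells. The intervals of counting error, which are exact Poisson intervals and do not cover the spread between fetuses, overlapped for all pairs of populations. By unscaled reads, limb cells were higher in the EGFP+ fraction and trunk cells in the EGFP− fraction, by amounts within the counting error. The trunk EGFP− library had the highest library-wide background, 1.83 reads, and its part in this order was not tested.

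At Sox11, the promoter held up to 2 intervals. The upstream one was present in all 4 lists, with summits 1009, 1004, 1026 and 1017 bp upstream of the start site, and lies in an exon of the lncRNA Gm56537. Its reads were 69 (53.7 to 87.3) in each limb fraction, 59 (44.9 to 76.1) in the EGFP+ and 40 (28.6 to 54.5) in the EGFP− cells of the trunk. The start-side interval, with summits 305 to 398 bp downstream, held 68 reads (52.8 to 86.2) in the limb EGFP+ library, 63 (48.4 to 80.6) in trunk EGFP+ and 38 (26.9 to 52.2) in trunk EGFP−, and was not called in limb EGFP− cells. Trunk EGFP− cells were thus the lowest at the upstream summit, and at the start-side summit the lowest of the populations with a call. Their counting interval overlapped all others at the upstream summit, and at the start-side summit that of trunk EGFP+ but not that of limb EGFP+ cells.

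At Sox12, the strongest promoter interval lay upstream of the start site in all 4 lists, with summits at 519, 482, 493 and 490 bp. The limb summits held 111 reads (91.3 to 134) in EGFP+ and 88 (70.6 to 108) in EGFP− cells, and the trunk summits 82 (65.2 to 102) and 71 (55.5 to 89.6). In this order the neighbours overlapped in counting error, and the first and the last did not. A further interval, with summits 1150, 1222, 1153 and 1158 bp upstream, was present in every list with 75, 53, 40 and 46 reads. An interval 570 bp downstream was called in limb EGFP+ cells alone, with 71 reads. The promoter of Sox12 was the highest of the SoxC promoters by reads in each list.

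**Figure D1:**
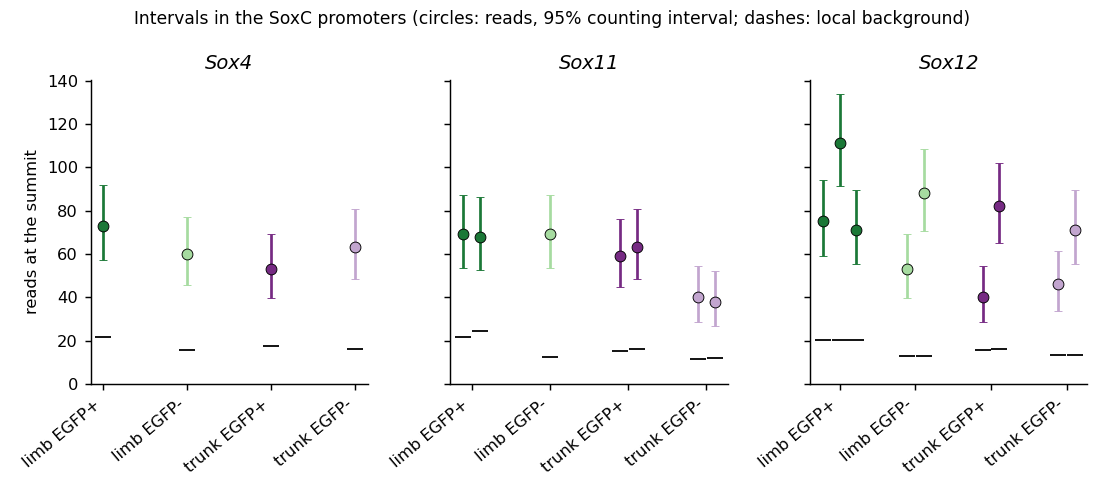
Reads at the summit (vertical axis) of each interval in the promoter of Sox4, Sox11 and Sox12 in the 4 populations (horizontal axis, 1 library each). Circles are reads with the exact 95% counting interval, ordered from upstream to downstream within a population, and dashes are the local background reads of the same summit. Reads run from 38 to 111, and every summit stands above its local background of 11.7 to 24.3 reads.

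By the peak caller's own order the same summits stood lower. Ranked by −log10 p, the strongest promoter interval was in the top 31.7, 29.9, 42.4 and 26.9% of its list for Sox4, in the order limb EGFP+, limb EGFP−, trunk EGFP+, trunk EGFP−. For Sox11 it was in the top 35.3, 14.8, 26.3 and 46.9%, and for Sox12 in the top 8.24, 5.85, 10.7 and 14.2%. Ranked by reads at the summit, an order added after the values were seen, the Sox4 summits were in the top 12.3, 13.3, 17.8 and 10.0%. The local background at these summits was itself high. It was 21.6, 15.8, 17.8 and 16.1 reads at Sox4, within the top 2.66 to 3.18% of all intervals of the 4 lists. MACS2 takes this background from the surrounding sequence and acetylated neighbours enter it. The part of this background in the ranks was not tested.

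The marked stretch extended over each gene. Within 10 kb of the start site, promoter included, Sox4 had 5, 4, 4 and 4 intervals, Sox11 5, 3, 4 and 5, and Sox12 7, 6, 6 and 5, in the same order of lists. At Sox11 every summit in this stretch had a local background of 21.6 to 25.9 reads in the EGFP+ and 12.3 to 13.7 in the EGFP− cells of the limb. The trunk fractions had 15.4 to 16.8 and 11.7 to 12.6. The highest of these were 17.4, 8.43, 10.5 and 6.88 times the library-wide background. The EGFP+ cells of both tissues therefore showed more H3K27ac over the Sox11 gene than the EGFP− cells by this measure, a difference without replicates. At Sox4 the highest local background was 21.6, 15.8, 17.8 and 16.1 reads, and at Sox12 it was 20.5, 13.0, 16.1 and 13.5 reads. For all 3 genes limb EGFP+ cells had the highest value and trunk EGFP+ cells the next.

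Distal intervals, which lie outside all protein-coding promoter windows, numbered 30, 21, 19 and 26 at Sox4 in limb EGFP+, limb EGFP−, trunk EGFP+ and trunk EGFP− cells. At Sox11 they numbered 19, 9, 14 and 9, and at Sox12 28, 21, 26 and 21. The median protein-coding gene had 10, 8, 9 and 7. Sox11 and Sox12 had more distal intervals in EGFP+ than in EGFP− cells in both tissues, as had the median over all genes. Sox4 had more in EGFP+ cells of the limb but fewer in EGFP+ cells of the trunk. The 26 intervals of Sox4 in trunk EGFP− cells were matched or passed by 2.71% of genes, while its 19 in trunk EGFP+ cells were matched or passed by 17.9%. Among the 1234 genes with at most 2 other start sites in their window, as at Sox4, 0.486% had 26 or more distal intervals in trunk EGFP− cells and 4.05% had 19 or more in trunk EGFP+ cells. With a fold of at least 4 the trunk difference at Sox4 turned, to 5 intervals in EGFP+ and 3 in EGFP− cells, while a −log10 q of at least 5 left 8 and 9 and the 20000 strongest intervals per list left 6 and 10.

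**Figure D2:**
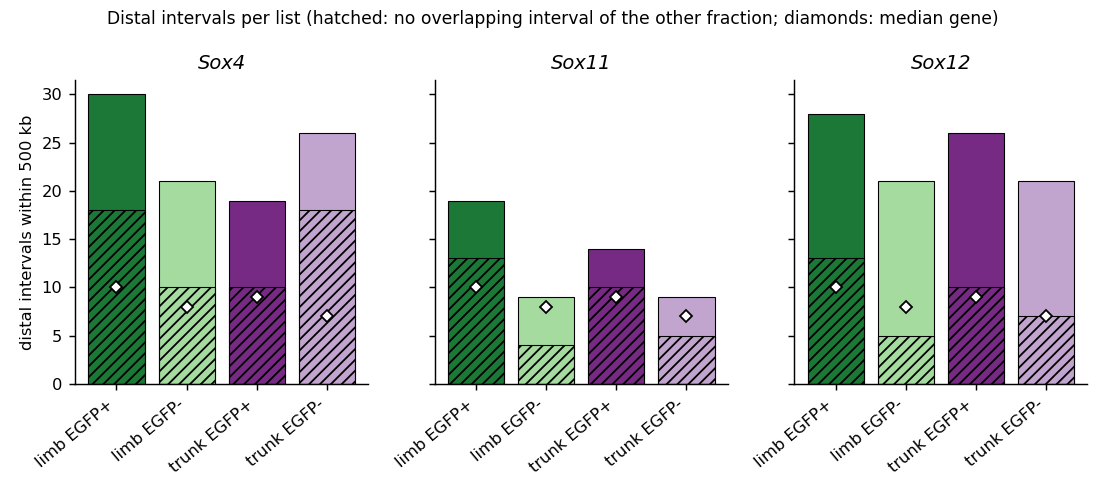
Number of distal intervals within 500 kb of the start site (vertical axis) in each population (horizontal axis) for Sox4, Sox11 and Sox12. Hatched parts have no overlapping interval of the other fraction of the same tissue, and diamonds give the median of all protein-coding genes. Sox4 reverses between tissues, from 30 EGFP+ and 21 EGFP− intervals in the limb to 19 and 26 in the trunk.

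The share of distal intervals without an overlapping interval of the opposite fraction was near that of all distal intervals at Sox11 and lower at Sox12. Over all genes the EGFP+ and EGFP− shares were 68.5% and 56.6% in the limb and 69.1% and 57.3% in the trunk. At Sox11 it was 13 of 19 (68.4%, 43.4 to 87.4%), 4 of 9 (44.4%, 13.7 to 78.8%), 10 of 14 (71.4%, 41.9 to 91.6%) and 5 of 9 (55.6%, 21.2 to 86.3%). At Sox12 it was 13 of 28 (46.4%, 27.5 to 66.1%), 5 of 21 (23.8%, 8.22 to 47.2%), 10 of 26 (38.5%, 20.2 to 59.4%) and 7 of 21 (33.3%, 14.6 to 57.0%), below the value of all intervals in each list. At Sox4 it was 18 of 30 (60.0%, 40.6 to 77.3%) and 10 of 21 (47.6%, 25.7 to 70.2%) in the EGFP+ and EGFP− cells of the limb, then 10 of 19 (52.6%, 28.9 to 75.6%) and 18 of 26 (69.2%, 48.2 to 85.7%) in those of the trunk. In the trunk the order of the fractions at Sox4 was the reverse of that over all genes, and the intervals, exact binomial ones, overlapped. Neighbouring intervals can belong to 1 element, so these intervals are too narrow as a measure of error.

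**Figure D3:**
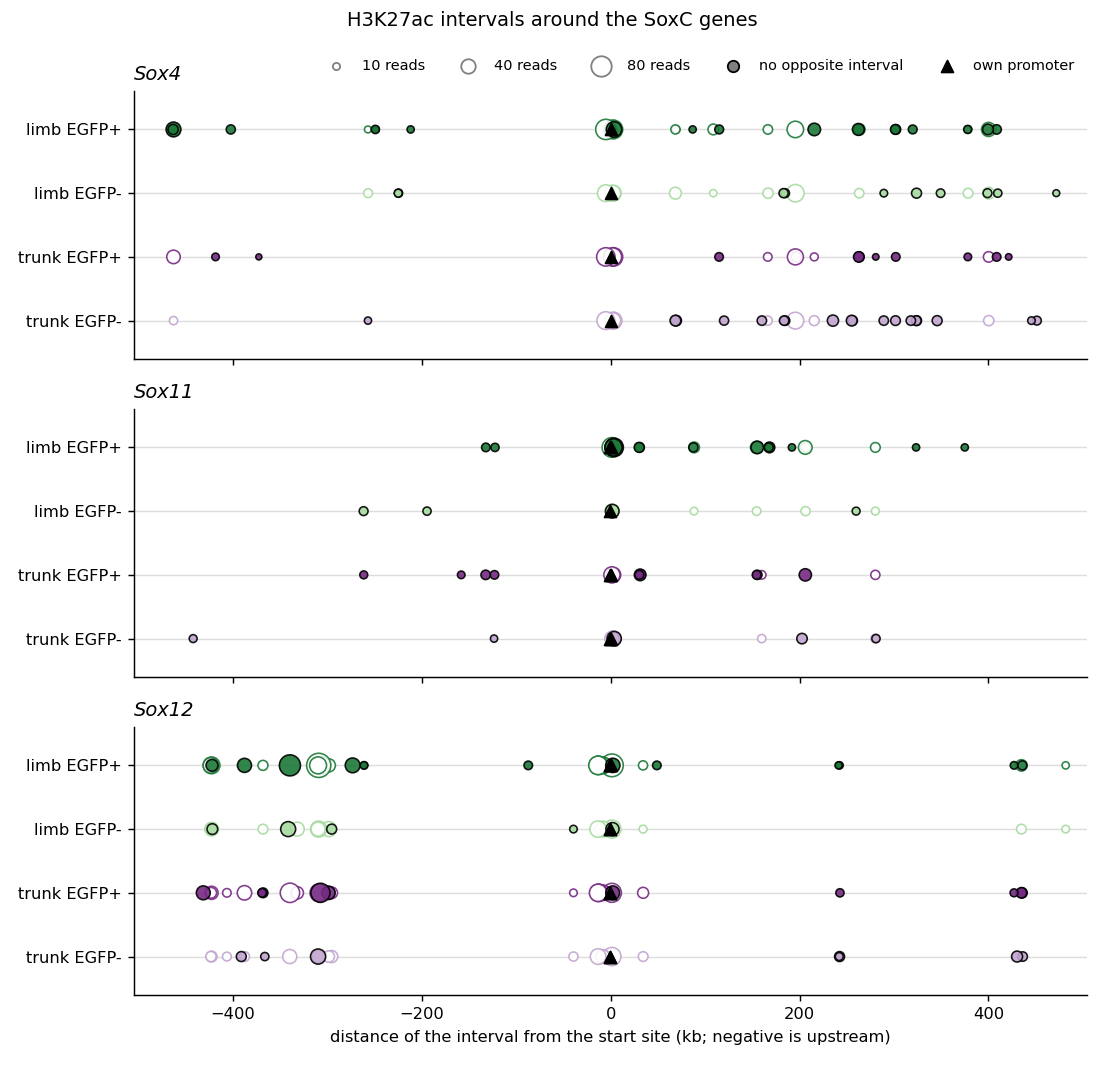
Distance of each H3K27ac interval from the start site (horizontal axis, kb, negative values upstream) in the 4 populations (rows) for Sox4, Sox11 and Sox12. The area of a circle follows the reads at the summit, filled circles have no overlapping interval of the other fraction of the same tissue, and triangles are promoter intervals. Sox4 has no interval between 5.95 and 212 kb upstream, and most of its intervals lie downstream.

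Joining overlapping distal intervals of the 4 lists gave 52 regions at Sox4, 30 at Sox11 and 41 at Sox12. At Sox4, 40 lay downstream and 12 upstream, and a stretch of 206 kb upstream of the gene, from 5.95 to 212 kb, held none. The lncRNA gene 2610307P16Rik, which extends downstream of Sox4, held 38 of the 52 regions, from 68.9 to 472 kb away. Of these 38, 10 had EGFP+ intervals alone and 19 had EGFP− intervals alone. Introns of Cdkal1, the gene upstream of Sox4, held 8 regions, of which 6 had EGFP+ intervals alone and 0 had EGFP− intervals alone. The lncRNA gene Gm59987, also upstream, held 2 regions, and both had EGFP− intervals alone, from the limb. Over all distal regions of the genome, 46.7% had EGFP+ intervals alone and 32.3% had EGFP− intervals alone. The 6 EGFP+ regions at Cdkal1 held 7 to 20 reads, and neighbours among them can belong to 1 element. All these counts are small and without a test. The farther ones of the Cdkal1 regions lie nearer to another protein-coding start site than to that of Sox4.

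The strongest distal region of Sox4 was the first of the printed stretches. It covers chr13:29142183-29143644, 5.22 kb upstream, across an exon of the lncRNAs A330102I10Rik and Gm61652. It held 79 and 54 reads in the limb EGFP+ and EGFP− cells and 65 and 61 in the trunk ones, with −log10 p from 30.8 to 41.1, and the counting intervals of the 4 populations overlapped. The second, chr13:28940919-28942886, lay 196 kb downstream in an intron of 2610307P16Rik and held 52, 58, 49 and 54 reads. By unscaled reads the second was marked at like levels in the 4 populations, while the first held the most in limb EGFP+ cells. The fourth, 400 kb downstream in the same lncRNA at chr13:28737139-28737608, held 38, 26, 21 and 20 reads. The fifth lay in the UTR of Sox4 itself, 3.04 kb downstream of the start site, and held 68, 46, 66 and 56 reads.

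The third was the region at Cdkal1 whose stretch carries the FOX match. It covers chr13:29600447-29601042, 463 kb upstream. It held 42 reads (30.3 to 56.8) in limb and 35 (24.4 to 48.7) in trunk EGFP+ cells. Trunk EGFP− cells held 13 (6.92 to 22.2), and limb EGFP− cells had no interval. The counting intervals of the trunk fractions did not overlap. It was also the strongest EGFP+-only region of Sox4, by its limb interval, although another protein-coding start site lies nearer to it. The next 2 EGFP+-only regions of Sox4 lay in introns of 2610307P16Rik. At chr13:28921827-28922260, 216 kb downstream, limb EGFP+ cells held 30 reads and limb EGFP− cells had no interval, while trunk EGFP+ cells held 12 and trunk EGFP− cells 19. At chr13:28874383-28875632, 263 kb downstream, the reads were 27, 17 and 21 in limb EGFP+, limb EGFP− and trunk EGFP+ cells, with no interval in trunk EGFP− cells.

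Counted over both tissues, 18 distal regions of Sox4 were EGFP+-only and 22 were EGFP−-only, so that EGFP+ took 45.0% (29.3 to 61.5%). Over the genome the numbers were 20118 and 14880, a share of 57.5%. Of all genes, 58.8% had more EGFP+-only regions and 27.2% more EGFP−-only regions, and Sox4 was among the latter. Its 22 EGFP−-only regions were matched or passed by 1.89% of genes. Of the 22, 11 had EGFP− intervals in the trunk alone, 6 in the limb alone and 5 in both. They were weak peaks. None of the 22 reached the upper 50% of its list by −log10 p with such an interval, while 8.69% of all EGFP−-only regions did, and their strongest intervals held 9 to 24 reads with a median of 17. Of the 18 EGFP+-only regions, 2 had one in the upper 50%, against 16.3% of all. A −log10 q of 5 or more left 9 EGFP+-only and 5 EGFP−-only regions at Sox4, and a fold of at least 4 left 8 and 2. Among the 20000 strongest intervals per list there were 3 and 6, so the excess of EGFP−-only regions turned under the first and second of these filters and not under the third.

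The 3 strongest EGFP−-only regions of Sox4 all lay in 2610307P16Rik and were EGFP−-only in the trunk. The one at chr13:28902169-28902542, 235 kb downstream, is the stretch printed with the SOX and TCF/LEF match. It held 24 reads in trunk EGFP− cells and had no interval in any other list. At chr13:29068208-29069297, 68.9 kb downstream, trunk EGFP− cells held 22 reads and limb EGFP− cells 27, with 16 in limb EGFP+ cells. At chr13:28882268-28882572, 255 kb downstream, trunk EGFP− cells alone had an interval, with 22 reads.

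At Sox11, 23 of the 30 distal regions lay downstream, and 4 lay in the gene itself. EGFP+-only regions numbered 14 and EGFP−-only regions 9, which put the EGFP+ share at 60.9% (38.5 to 80.3%), near that of the genome. The strongest distal region lay 206 kb downstream, at chr12:27185846-27186995 in an exon of Silc1, a lncRNA gene known to act on Sox11 in sensory neurons. It held 36 reads (25.2 to 49.8) in EGFP+ and 16 (9.15 to 26.0) in EGFP− cells of the limb. In the trunk, EGFP+ cells held 29 (19.4 to 41.6) and EGFP− cells had no interval. Its trunk interval is the EGFP+-only stretch printed above. The second region, in the coding exon of Sox11 at chr12:27391146-27391449, was marked in all 4 lists and held 74 (58.1 to 92.9), 38 (26.9 to 52.2), 50 and 39 reads. Both regions held more reads in EGFP+ than in EGFP− cells of the limb, and at the coding exon the counting intervals of the limb fractions did not overlap.

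The third region of Sox11 lay 2.90 kb downstream of the start site in the UTR of the gene and held 57 reads in limb EGFP+, 40 in trunk EGFP+ and 45 in trunk EGFP− cells, with no interval in limb EGFP− cells. The fourth, 88.3 kb downstream at chr12:27304119-27304452, was marked in the limb lists, with 22 and 11 reads. The fifth, 168 kb downstream at chr12:27224283-27224630, was marked in limb EGFP+ cells alone, with 22 reads. An EGFP+-only region was also called inside the gene, 3.20 kb downstream of the start site, where the limb EGFP+ interval held 66 reads. The EGFP−-only regions of Sox11 were led by an interval at the same place in the UTR, chr12:27388812-27389111, which covers the limb EGFP+ interval chr12:27388859-27389102 and held 39 reads in trunk EGFP− cells. It was followed by chr12:27189804-27190393 in an exon of Silc1 with 21 reads in trunk EGFP− cells and chr12:27654063-27654788, 262 kb upstream, with 15 reads in limb EGFP− cells. The last place also held a trunk EGFP+ interval with 12 reads, which counts as EGFP+-only. In the UTR and at the last place, then, an interval was called in 1 fraction of the limb and in the opposite fraction of the trunk. In the UTR the calls stood over a high local background. Over the Sox11 gene it was 12.3 to 13.7 reads in limb EGFP− and 15.4 to 16.8 in trunk EGFP+ cells, which lacked the call. It was 12.4 reads at the trunk EGFP− summit, so the calls do not show that the mark was absent. None of the 9 EGFP−-only regions had such an interval in the upper 50% of its list, and 5 of the 14 EGFP+-only regions had.

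The distal intervals of Sox11 ranked low in limb EGFP− cells. None of its 9 intervals there stood in the upper 50% of the list, while 6 of 19 did in limb EGFP+, 4 of 14 in trunk EGFP+ and 1 of 9 in trunk EGFP− cells. At Sox4 the counts were 7 of 30, 7 of 21, 5 of 19 and 4 of 26, and at Sox12 12 of 28, 8 of 21, 12 of 26 and 8 of 21. Over all distal intervals the upper 50% took 27.3, 24.5, 25.3 and 21.5% in the same order of lists. Sox12 stood above these shares in every list.

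At Sox12, 27 of the 41 distal regions lay upstream. Most belonged to the surroundings of other genes. Bcl2l1, which encodes an inhibitor of cell death, held 8 of them and H13, a gene of a signal peptide peptidase, held 6. Taking only the intervals whose nearest protein-coding start site was that of Sox12 left 3, 3, 3 and 2. The strongest distal region, chr2:152548431-152549612, lay 309 kb upstream in the UTR of H13. The limb fractions held 112 reads (92.2 to 135) in EGFP+ and 50 (37.1 to 65.9) in EGFP− cells, and the trunk fractions 60 (45.8 to 77.2) and 31 (21.1 to 44.0). In both tissues the EGFP+ fraction was higher and the counting intervals of the fractions did not overlap. The second, chr2:152238437-152238977, lay in the coding exon of Sox12, 1.28 kb downstream of the start site. It held 99 (80.5 to 121), 62 (47.5 to 79.5), 69 and 64 reads, so that limb EGFP+ cells stood above limb EGFP− cells by more than the counting error and the trunk fractions were level.

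The next 3 regions of Sox12 lay in H13 and Bcl2l1. The third, 308 kb upstream, held 66, 31 and 70 reads in limb EGFP+, limb EGFP− and trunk EGFP+ cells, with no interval in trunk EGFP− cells. It held the strongest EGFP+-only region of Sox12. The fourth, 299 kb upstream, was the exception in direction, with 33 reads in limb EGFP+ cells and 44 in limb EGFP− cells, then 34 and 25 in the trunk. The fifth, 423 kb upstream, held 54, 35, 33 and 22 reads. The other named EGFP+-only regions of Sox12 lay at chr2:152626787-152628212 in an intron of Bcl2l1, with 38 and 40 reads in the limb and trunk EGFP+ cells, and at chr2:152538962-152539300 in an intron of H13. The first was EGFP+-only in the limb alone, since trunk EGFP− cells had an interval with 19 reads. The second, within the fourth region above, was EGFP+-only in the trunk alone, and limb EGFP− cells held more reads there than either EGFP+ population. The EGFP−-only regions were led by chr2:152549824-152550141 in the UTR of H13, with 44 reads in trunk EGFP− cells and 55 and 38 in the limb fractions. The next 2 were intergenic, with 19 and 23 reads in trunk EGFP− cells, and the first of them held 10 in limb EGFP+ cells. Sox12 had 18 EGFP+-only regions in all and 11 EGFP−-only ones, which gives 62.1% (42.3 to 79.3%) for EGFP+.

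**Figure D4:**
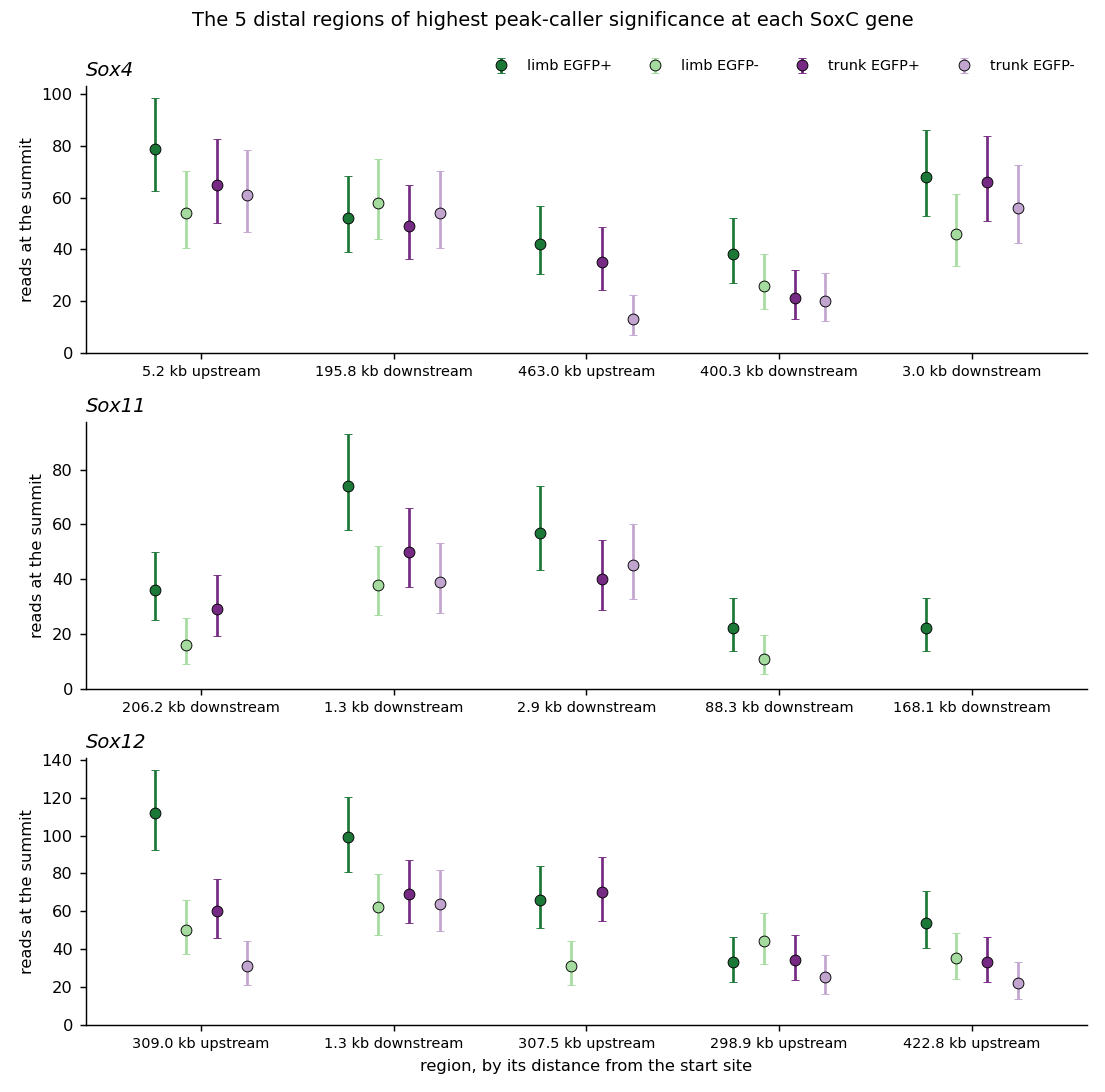
Reads at the strongest summit (vertical axis) in each population, with exact 95% counting intervals, for the 5 distal regions of highest −log10 p at Sox4, Sox11 and Sox12, named by their distance from the start site (horizontal axis). A missing point means that no interval was called. By unscaled reads, the region 196 kb from Sox4 is marked at like levels in all populations, and the region at 5.22 kb holds the most in limb EGFP+ cells. The region 463 kb upstream of Sox4 falls to 13 reads in trunk EGFP− cells.

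The distal regions were also counted by their presence over the 4 lists. Of the 52 regions of Sox4, 6 (11.5%) were marked in all 4 lists, 17 (32.7%, 20.3 to 47.1%) in EGFP+ lists alone and 21 (40.4%, 27 to 54.9%) in EGFP− lists alone. Over the 43885 distal regions of the genome these shares were 8.67%, 46.7% and 32.3%. Trunk EGFP− cells alone marked 11 regions of Sox4 (21.2%, 11.1 to 34.7%), against 11.4% of all regions. Both EGFP− lists and no EGFP+ list marked 3 regions of Sox4 and 0 of Sox11 and Sox12, against 4.68% of all regions. Both EGFP+ lists and no EGFP− list marked 4 regions of Sox4, 4 of Sox11 and 2 of Sox12, against 10.6%. A single list marked 31, 17 and 17 of the regions, against 63.7%. At Sox12, 9 of 41 regions (22.0%, 10.6 to 37.6%) were in all 4 lists, and at Sox11 2 of 30. The exact intervals of these Sox4 shares held the value of the genome in each case, and the interval of the Sox12 share in all 4 lists did not. Such intervals are too narrow where neighbouring regions belong to the same element. They therefore do not decide whether Sox12 differs from the genome.

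Where a distal region was marked in both fractions of a tissue, the reads at its summits could be set side by side. At Sox11 the limb EGFP+ cells held more reads than the limb EGFP− cells in 5 of 5 such regions, with medians of 28 and 14 reads, and at Sox12 in 13 of 15 (86.7%, 59.5 to 98.3%), with medians of 48 and 34 reads. At Sox4 it was 6 of 11, with medians of 24 and 26. Over all genes the EGFP+ cells held more in 58.3% of the regions marked in both limb fractions. In the trunk the EGFP+ cells held more in 5 of 8 regions of Sox4, 3 of 4 of Sox11 and 11 of 14 (78.6%, 49.2 to 95.3%) of Sox12, against 52.0% of all such regions. Shared regions of Sox4 were thus divided between the fractions in the limb. Those of Sox12 more often held more reads in EGFP+ cells, in the limb and in the trunk. Neighbouring regions can belong to the same element, so the exact intervals are too narrow. They do not decide whether Sox12 differs from all regions. Most distal intervals of Sox12 also lie nearer to the start site of another gene.

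The motifs were sparse at the summits of the SoxC regions, as over the genome. Among all distal intervals, AACAAT occurred within these bases around the summit in 6.89 to 8.54% over the 4 lists, ACAAAG in 17.0 to 19.1%, TAAACA in 10.7 to 11.9% and TGANTCA in 4.72 to 5.38%. At Sox4, ACAAAG occurred in 8 of 30 intervals of the limb EGFP+ list, 3 of 21 of limb EGFP−, 0 of 19 of trunk EGFP+ and 7 of 26 of trunk EGFP−, and AACAAT in 3, 3, 0 and 4. TGANTCA occurred in none of the Sox4 intervals of any list. At Sox11 and Sox12, ACAAAG occurred in 14.3 to 22.2% of the intervals. A match describes the letters and is not evidence of binding.

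The other genes of the family and of related lists were counted in the same way. Over all protein-coding genes, 54.0, 51.2, 52.2 and 52.2% carried an own-promoter interval in limb EGFP+, limb EGFP−, trunk EGFP+ and trunk EGFP− cells, and 47.1% in all 4 lists. More EGFP+-only regions were found at 58.8% of all genes and more EGFP−-only regions at 27.2%. Of 16 other Sox genes, 7, 2, 4 and 3 carried an own-promoter interval in limb EGFP+, limb EGFP−, trunk EGFP+ and trunk EGFP− cells, and 2 of them, Sox6 and Sox9, in all 4 lists. Sox9, the master regulator of chondrocytes, had 53, 9, 39 and 8 distal intervals and 41 EGFP+-only against 8 EGFP−-only regions, unlike Sox4 with 18 against 22. Of the 16, 13 had more EGFP+-only and 3 had more EGFP−-only regions. Of 18 genes of mesenchymal and perichondrial progenitors, 11 were marked at the promoter in all 4 lists, and 10 had more EGFP+-only and 8 more EGFP−-only regions. Of 12 genes linked to SoxC function as targets, partners or parts of Wnt signalling, 5 were marked in all 4 lists, among them Ctnnb1, which encodes beta-catenin, Axin2, a target and inhibitor of the Wnt pathway, and Gsk3b, a kinase that marks beta-catenin for breakdown. Of the 12, 8 had more EGFP+-only and 2 more EGFP−-only regions. The latter were Axin2, with 11 against 22, and Apc, a scaffold of the complex that breaks down beta-catenin, with 11 against 14. Both the 5 and the 8 of these 12 genes were near the shares of all genes. Of 11 chondrocyte genes, 7 carried promoter intervals in both EGFP+ lists and in no EGFP− list. The share of all genes with this pattern was not counted. No SoxC gene showed it, since the SoxC promoters were marked in all 4 lists, as were those of 47.1% of all genes.

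By the number of distal intervals in the 4 lists, the gene of these lists most like Sox4 was Gsk3b, with a summed difference of 15 intervals, followed by Marcksl1 and Sox10 with 19 each. Sox11 was nearest to Snorc and Sox8, with 7 each, then Matn1, Tcf7 and Tubb3 with 9 each. Sox12 was nearest to Gsk3b with 5, Twist2 with 12 and Marcksl1 with 13. The likeness was taken over 4 libraries and 57 genes. Of the 15 intervals between Sox4 and Gsk3b, 7 came from trunk EGFP− cells, where Gsk3b had 19.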

How the data were processed

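H3K27ac ChIP-seq peak lists of 4 sorted populations were used, 1 library each. The authors drew equally many reads from each library, removed adapters with cutadapt 1.18, mapped them to GRCm39 with Bowtie2 2.3.5.1 and filtered them with SAMtools. MACS2 2.2.7.1 then called peaks per library, with reads extended to 200 bp. No control library and no q threshold are named in the sources used here. The score in the deposited lists is 10 times the −log10 q without its decimals, and the fold is a ratio, the summit pileup over the local background of that library. The −log10 p and −log10 q were computed by the authors with MACS2. Folds served to filter peaks within a list. The −log10 p ranked the peaks of a list and, across lists, ordered the regions to be named.

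Summits of 1 start and end were joined into intervals on chromosomes 1 to 19, X and Y. Start sites were the 67388 of protein-coding transcripts in GENCODE vM39. Promoter windows ran from 2 kb upstream to 500 bp downstream of them, and distal intervals lay outside all of these. EGFP+-only and EGFP−-only intervals were those that the other fraction of their tissue did not overlap by 1 bp, and were merged within 500 bp per tissue and, where they overlapped, across tissues. Summit reads and local background were solved from the fold and −log10 p, for 100% of the summits within 0.001 of the −log10 p. Exact intervals at the 95% level, Poisson for reads and Clopper-Pearson for shares, cover counting error only.

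The members, gene lists and motifs were chosen with earlier results of these data known. Named by rule were, per gene, the 5 distal regions of highest −log10 p in any list, the 3 EGFP+-only and 3 EGFP−-only regions of highest −log10 p of such an interval, the summit with 100 bases on each side of the strongest promoter interval and of the strongest EGFP+-only, EGFP−-only and all-list region, and the 3 listed genes over 1 Mb away with the most similar distal counts, ties included. Sequences were read from the GRCm39 assembly, and stretches in UTRs were left out. The alternatives were a −log10 q of at least 5, a fold of at least 4, the 20000 strongest intervals per list, sharing only from 50% of the shorter interval, 1 kb without an opposite interval, windows of 100 and 250 kb, the nearest start site, no promoter filter, no merging across gaps and a promoter window of 1 kb on each side. The rank by reads, the regions of all 4 lists under the stricter lists and each tissue alone were added after the values were seen. Peaks of the trunk EGFP− list are named as replicate 2, but its label, which was followed, gives replicate 1. Scripts ran on Python 3.11.15 with scipy 1.17.1, numpy 2.4.6, pysam 0.24.0, pandas 2.3.3 and matplotlib 3.10.9.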

Additional observations from a re-analysis of the deposited data

Results flagged for a closer look

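The distal intervals of Sox4 moved in opposite directions between the fractions in the limb and in the trunk. The count of EGFP+ minus EGFP− cells was 9 in the limb, from 30 and 21 intervals, and -7 in the trunk, from 19 and 26 intervals. This difference between the tissues was not tested, since each population has 1 library. Sox11, with 10 and 5, and Sox12, with 7 and 5, were positive in both tissues. Within 250 kb of the Sox4 start site the differences were 4 and -5, with a −log10 q of at least 5 they were 7 and -1, with the 20000 strongest intervals per list 0 and -4, and with a fold of at least 4 they were 7 and 2. The opposite sign was thus lost under the fold filter and, with a limb difference of 0, among the 20000 strongest. The trunk EGFP− library had the highest library-wide background, 1.83 reads, and the fewest distal intervals, 14231, and their part in the Sox4 count was not tested.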

How the results depend on the processing

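Counts moved by more than 1.5 times in 66 of 114 comparisons of a main count with an alternative. The values are given as EGFP+-only regions, EGFP−-only regions and distal intervals summed over the 4 lists, which were 18, 22 and 96 at Sox4, 14, 9 and 51 at Sox11 and 18, 11 and 96 at Sox12. With a −log10 q of at least 5 they were 9, 5 and 42, then 8, 3 and 22, then 10, 5 and 56, and the Sox11 and Sox12 regions in all 4 lists fell from 2 and 9 to 1 and 5. With a fold of at least 4 they were 8, 2 and 27, then 10, 5 and 20, then 9, 5 and 32, the regions in all 4 lists were 2, 0 and 1, and a promoter interval remained in 0 lists for Sox4 and in 1 for Sox11, against 4. With the 20000 strongest intervals per list they were 3, 6 and 30, then 8, 2 and 15, then 7, 6 and 46, and the regions of Sox11 and Sox12 in all 4 lists were 0 and 5. Within 100 kb they were 2, 1 and 19, then 3, 2 and 18, then 3, 2 and 30. Within 250 kb they were 6, 8 and 47 at Sox4 and 6, 3 and 35 at Sox12, and Sox11 had 5 EGFP−-only regions. Requiring no opposite interval within 1 kb gave 5 EGFP−-only regions at Sox11 and 11 and 6 regions at Sox12. By the nearest start site Sox12 kept 1 and 1 regions and 11 intervals, and without the promoter filter it had 200 intervals. Limb lists alone gave 9, 4 and 5 EGFP−-only regions at Sox4, Sox11 and Sox12, and trunk lists alone gave 9, 8 and 9 EGFP+-only regions and, at Sox11 and Sox12, 5 and 6 EGFP−-only regions. Stricter lists, smaller windows and single tissues hold fewer peaks by construction.

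Direction was steadier than size. EGFP+-only regions outnumbered EGFP−-only regions in 12 of 12 alternatives at Sox11 and in 11 of 12 at Sox12, with 1 tie under the nearest start site. At Sox4 they did so in 4 of 12, namely the −log10 q and fold filters, the 100 kb window and the limb lists alone, and EGFP−-only regions were more in the other 8. The weakest summits of the lists held 7 to 8 reads, and a region without a called peak may still hold acetylation. Where the local background is high, such a region may hold more reads than that. Within 10 kb of the SoxC start sites, the weakest called summit per gene and list held 33 to 57 reads. No paired analysis was possible because each population has 1 library and no test was made.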
